A study of Homo sapiens with 74 samples.

Results

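The Cut&Run libraries of CISD1, an iron-sulfur protein of the outer mitochondrial membrane, gave 8702 peaks in replicate 1 and 2633 peaks in replicate 2, or 11335 of the 92122 peaks in the 72 lists of 36 zinc finger proteins (ZFPs). All peaks of both lists were used. HEK293T is a human embryonic kidney line. Its cells were transfected with a plasmid that carried the CISD1 open reading frame (ORF) with a C-terminal V5 tag under an EF1-alpha promoter, and an antibody against V5 (Bethyl A190-120A) directed the nuclease 48 h later. Each replicate was 1 well, and the V5 mock IP was un-transfected HEK293T cells handled with the same antibody, so that the mock IP held neither the plasmid nor the transfection. The protein was therefore expressed from a plasmid beside the endogenous gene, and no library of cells transfected with an empty plasmid was analysed here. No read totals stand in the peak lists.

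In Cut&Run, an antibody brings micrococcal nuclease to the tagged protein in permeabilised cells, and the DNA cut free is sequenced. CISD1, also called mitoNEET, is anchored in the outer mitochondrial membrane by its N-terminus and holds a 2Fe-2S cluster in a CDGSH domain that faces the cytosol. It is not known as a chromatin protein. Its peaks are described here as regions called for a tagged protein against the mock IP. Whether the tagged protein met chromatin, directly or not, was not tested. The study lists Cut&Run target genes for CISD1 and takes DNA binding to include indirect association. Open promoters, highly transcribed small RNA genes, ribosomal DNA and satellite repeats are known to give reads in such experiments with many antibodies.

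Peaks that overlapped by at least 1 bp were merged into 10158 regions. CISD1 exons (2 regions) and the EEF1A1 gene (2 regions), which match the plasmid's ORF and promoter, were set apart. The remaining 10154 regions comprised 1109 found in both replicates, 7573 of replicate 1 only and 1472 of replicate 2 only. The 3 pseudogenes of CISD1 described next are counted among the 1109. Hence 12.8% of the regions of replicate 1 were also called in replicate 2, and 43.0% of those of replicate 2 were called in replicate 1.

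The sequences with the highest fold over mock IP outside EEF1A1 were copies of the CISD1 ORF. The ORF of 324 bases matched 6 places in hg38, namely 3 CISD1 exons on chromosome 10 and 3 processed pseudogenes over the whole ORF. The stretch of 80 bases below is shown because it lies under the peaks at all 4 loci that carried one in both replicates. Capitals mark bases that differ from the ORF.
CISD1 ORF, bases 121 to 200: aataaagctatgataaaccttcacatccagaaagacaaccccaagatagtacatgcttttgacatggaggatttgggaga
CISD1 exon, chr10:58277206-58277285, plus strand: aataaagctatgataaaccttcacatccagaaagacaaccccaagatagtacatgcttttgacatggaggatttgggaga
ENSG00000253512, chr5:165782931-165783010, minus strand: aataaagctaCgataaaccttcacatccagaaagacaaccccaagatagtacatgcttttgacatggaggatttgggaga
CISD1P1, chr2:19826369-19826448, plus strand: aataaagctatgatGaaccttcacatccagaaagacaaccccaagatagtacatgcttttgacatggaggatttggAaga
ENSG00000257405, chr12:42636942-42637021, minus strand: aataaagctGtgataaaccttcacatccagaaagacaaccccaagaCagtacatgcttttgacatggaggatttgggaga

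The exon of CISD1 is identical to the ORF in this stretch, and each pseudogene differs from it at 1 or 2 bases. Over the whole ORF the pseudogenes were 95.4% (ENSG00000257405, within LINC02402), 93.2% (CISD1P1) and 92.7% (ENSG00000253512) identical to it. The exon of CISD1 at chr10:58277115-58277350 had folds of 1159 in replicate 1 and 1110 in replicate 2. The pseudogene on chromosome 12 had folds of 842 and 744. CISD1P1 on chromosome 2 had folds of 485 and 422, and the pseudogene on chromosome 5 had folds of 464 and 449. The lower edge of the peaks lay within 2 bp of that of the match at these 4 loci, and at 3 of them the upper edge ran past it. On chromosome 10 both replicates' peaks began at 58277115, the first base of the match, and ended at 58277350 and 58277348, past the end of the match at 58277322. On chromosome 2 the peaks began at 19826248 and ended at 19826594 and 19826600, against a match from 19826249 to 19826572. The last exon of the ORF (chr10:58287559-58287647) had no CISD1 peak in either replicate.

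EEF1A1, whose promoter is the source of the EF1-alpha promoter, had the highest fold in both lists, 7903 and 4829 at chr6:73520048-73521255, and all 35 other ZFPs had a peak there. The CISD1 exon, by contrast, had a peak in 1 other list, that of RNF113A replicate 1, with a fold of 8.03, so that folds in the range of the CISD1 libraries were seen in no other list. RNF113A is a ring finger protein of the spliceosome. Its lists also held peaks on the last CISD1 exon (folds of 9.64 and 9.38) and on the pseudogene of chromosome 12 (9.40 and 8.56), and the CISD1 lists held peaks on the single coding exon of RNF113A (6.39 and 5.42), within 1 kb of a transcription start site (TSS). RNF113A was not alone in this, since CISD1 peaks lay on coding exons of 7 of the other ZFPs. These were CPSF4, MAZ, RNF113A, WBP4, ZFP36L1, ZNF317 and ZNF574, with folds of 3.77 to 6.39. Those of CPSF4, MAZ, RNF113A and ZFP36L1 were in both replicates. All but ZNF317 and ZNF574 had these peaks within 1 kb of a TSS, where 25.4% of all protein-coding genes had a peak of replicate 1. The peaks of ZNF317 and ZNF574 lay 2766 and 4490 bp from a TSS, in replicate 1 only. The share of all coding genes with a peak on a coding exon is not given here. The cause of the peaks in the RNF113A lists was not tested.

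At the CISD1 promoter itself (chr10:58268988-58269345), replicate 1 had a fold of 21.4 with a pileup of 33 fragments, and replicate 2 had no peak. A peak lay over that region in 12 other ZFPs, among them RNF113A (9.64 in its replicate 1), ZNF22 (8.33 in its replicate 1) and APEX2 (7.28 in its replicate 1). This region overlaps bases 1 to 36 of the ORF, and the share of plasmid reads in it cannot be told apart from that of the promoter.

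The promoter peaks made up the bulk of the regions. The 5 windows below, each the summit and 100 bp on either side, are shown because 4 of them had the highest fold (the lower of both replicates) among coding promoters that hold a given motif, and the fifth was called for CISD1 only. Capitals mark GGGCGG (the SP/KLF family) in CARM1, GCGCATGC (NRF1) in TMEM41B, CCGGAAG (the ETS family) in B4GALT6 and CCAAT (NFY) in KIF22 and MAZ, on either strand. Only the motif named for a window is marked. The windows of TMEM41B, of B4GALT6 and of KIF22 and MAZ also hold unmarked matches to others of these 4 motifs. RNASET2 held none of the 4. Windows that touch an untranslated exon were passed over.
CARM1, chr19:10871124-10871324, plus strand: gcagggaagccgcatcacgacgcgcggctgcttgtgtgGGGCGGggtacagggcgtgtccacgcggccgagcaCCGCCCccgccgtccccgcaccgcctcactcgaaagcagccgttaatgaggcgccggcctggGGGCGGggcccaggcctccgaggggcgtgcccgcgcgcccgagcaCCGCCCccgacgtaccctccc
TMEM41B, chr11:9314661-9314861, plus strand: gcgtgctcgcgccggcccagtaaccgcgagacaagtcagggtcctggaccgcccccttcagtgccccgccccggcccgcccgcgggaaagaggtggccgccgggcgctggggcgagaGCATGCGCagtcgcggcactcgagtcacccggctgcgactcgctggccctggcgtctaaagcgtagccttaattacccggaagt
B4GALT6, chr18:31685316-31685516, plus strand: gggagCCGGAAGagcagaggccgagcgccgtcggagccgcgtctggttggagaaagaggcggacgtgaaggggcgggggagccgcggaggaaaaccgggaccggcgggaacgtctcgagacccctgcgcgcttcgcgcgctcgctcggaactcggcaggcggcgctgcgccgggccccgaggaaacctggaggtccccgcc
KIF22 and MAZ, chr16:29805676-29805876, plus strand: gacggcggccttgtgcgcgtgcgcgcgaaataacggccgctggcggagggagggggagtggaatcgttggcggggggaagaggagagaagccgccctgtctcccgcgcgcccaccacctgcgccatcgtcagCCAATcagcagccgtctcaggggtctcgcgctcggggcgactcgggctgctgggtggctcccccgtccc
RNASET2, chr6:166944804-166945004, plus strand: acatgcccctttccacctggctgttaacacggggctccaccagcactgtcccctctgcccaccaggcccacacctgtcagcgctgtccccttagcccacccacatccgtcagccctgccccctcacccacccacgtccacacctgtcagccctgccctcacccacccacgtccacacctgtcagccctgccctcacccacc

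The other kinds of regions differ from these in sequence. The summit window of RNU1-4, a U1 snRNA gene, is shown as an example of the small RNA genes, with the gene in capitals.
RNU1-4, chr1:16740524-16740724, plus strand: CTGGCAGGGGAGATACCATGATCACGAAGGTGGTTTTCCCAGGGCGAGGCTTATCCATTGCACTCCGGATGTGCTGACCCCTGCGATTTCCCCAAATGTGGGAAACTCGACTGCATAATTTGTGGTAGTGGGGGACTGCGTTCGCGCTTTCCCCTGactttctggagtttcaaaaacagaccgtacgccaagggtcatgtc
Satellite-like regions, defined by 5 or more GGAAT pentamers within 100 bp of the summit, are shown by the one with the highest lower fold among those with 20 or more, with GGAAT or its complement in capitals.
satellite-like region, chr20:31075328-31075528, plus strand: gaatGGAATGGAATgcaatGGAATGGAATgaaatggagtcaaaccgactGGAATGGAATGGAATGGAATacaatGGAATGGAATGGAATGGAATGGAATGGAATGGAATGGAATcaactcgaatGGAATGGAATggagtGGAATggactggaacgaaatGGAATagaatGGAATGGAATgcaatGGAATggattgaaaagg

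In the list lengths CISD1 was among the highest of the series. The geometric mean of its lists was 4787 peaks, behind APEX2 with 4900, and replicate 1 was the longest of the 72 lists, which had a median of 631 peaks. Labelling each of the 36 ZFPs in turn gave p = 0.0556 for the difference from the other ZFPs (exact two-sided permutation test, 0.222 after adjustment over 4 tests, and 0.0278 is the smallest p it can give). On average 59.7% ± 6.68 (SD, n = 2) of CISD1 peaks were no more than 1 kb from a TSS, 64.4% in replicate 1 (exact 95% interval 63.4 to 65.5%) and 55.0% in replicate 2 (53.1 to 56.9%). The mean of the other ZFPs was 32.6% ± 23 (SD, n = 35), and CISD1 ranked 8 of 36 (exact permutation test, p = 0.250, adjusted p = 0.333). Satellite-like peaks made up 1.67% of replicate 1 and 6.27% of replicate 2, against a mean of 27.6% ± 18.0 (SD, n = 35) elsewhere (exact permutation test, p = 0.222, adjusted p = 0.333). Of the peaks of the shorter CISD1 list, 44.1% overlapped the longer one, and the mean of the other ZFPs was 46.2% ± 19.5 (SD, n = 35; exact permutation test, p = 0.944). None of the 4 measures passed 0.05, which does not show that CISD1 is like the other ZFPs. The test takes the 36 ZFPs as interchangeable, which libraries that share a batch and a mock IP may not be. The intervals cover counting error only, and replicates differed by more than them in both shares.

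**Figure D1:**
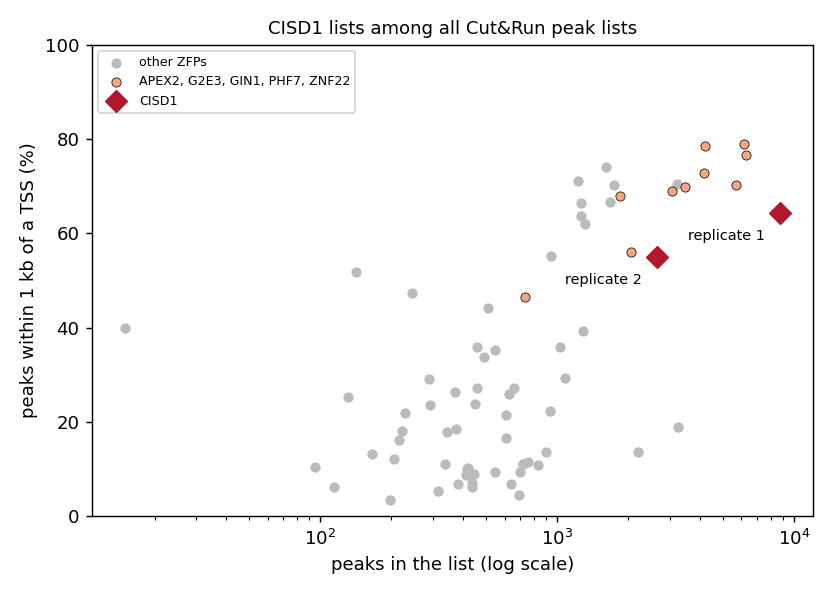
Number of peaks in each of the 72 lists (horizontal axis, log scale) against the percent of its peaks within 1 kb of a TSS (vertical axis). Each point is 1 list, red diamonds are the CISD1 replicates (8702 peaks, 64.4% and 2633 peaks, 55.0%), and orange points are the 5 ZFPs that shared most CISD1 regions of both replicates.

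How many fragments stood behind a peak could be read from the files. MACS2 prints fold as (pileup + 1) over (control + 1) and a Poisson p-value for the same pair, and solving both gave a whole pileup for 99.9% of the peaks of replicate 1 and 99.3% of those of replicate 2 (to within 0.001 in -log10 p). The unit is called a fragment here, although the caller may have been set to count extended reads. The median peak rested on 6 fragments in replicate 1 (10th to 90th percentile 5 to 11) and 8 fragments in replicate 2 (6 to 30). The lowest pileup was 4 and 5 fragments. The control expectation is the highest of the scaled mock IP rates that MACS2 takes near the summit and over the whole genome, so that its lowest value is a floor and not a count at the summit. This floor was 0.320 in replicate 1, where 20.5% of the peaks had it, and 0.395 in replicate 2, where 14.6% did (to within 0.005). Whether it accounts for the lower pileups called in replicate 1 was not tested. Whole pileups came out for at least 95% of peaks in 54 of the 72 lists, whose median pileups ran from 4 to 52.

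The share of regions found again rose with this pileup. Of the regions of replicate 1 at 5 or fewer fragments, 3.36% (exact 95% interval 2.70 to 4.13%) were also called in replicate 2. The share was 7.12% at 6 to 7 fragments, 14.5% at 8 to 9, 29.5% at 10 to 14 and 51.4% at 15 to 24. At 25 or more fragments it was 76.1% (70.8 to 80.9%, 289 regions). Regions of replicate 2 followed the same order, from 16.4% at 5 or fewer to 77.3% (71.8 to 82.2%, 269 regions) at 25 or more. Most regions of replicate 1 therefore lay where few were found again, since 5873 of them had 7 or fewer fragments. Sharing with other ZFPs moved with the pileup as well, from 34.3% of the replicate 1 regions at 5 or fewer fragments to 98.6% at 25 or more, and from 39.9% to 98.9% in replicate 2.

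**Figure D2:**
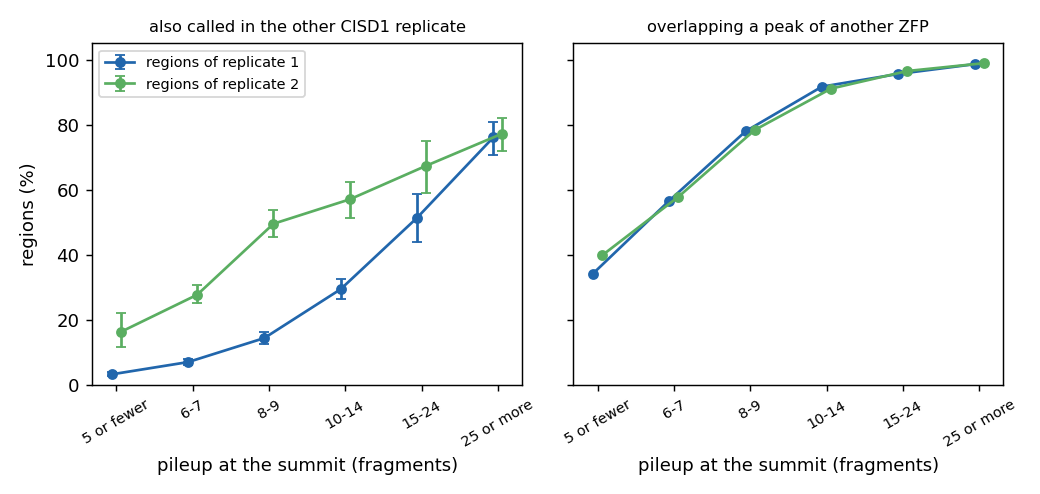
Percent of CISD1 regions (vertical axis) that were also called in the other CISD1 replicate (left, bars are exact 95% intervals) or overlapped a peak of another ZFP (right), by the pileup at the summit in fragments (horizontal axis). Regions of replicate 1 rise from 3.36% to 76.1% on the left and from 34.3% to 98.6% on the right.

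The regions in both replicates and those of replicate 1 only had shares at promoters whose intervals overlapped. Of the 1109 regions in both, 64.8% (exact 95% interval 61.9 to 67.6%) were within 1 kb of a TSS and 54.7% within 1 kb of the TSS of a protein-coding gene. The 7573 regions of replicate 1 only had 64.5% (63.4 to 65.6%) and 57.8%, and the 1472 of replicate 2 only had 48.3% (45.7 to 50.9%) and 42.3%. Outside of promoters the classes differed in what they held. Satellite-like regions were 8.93% of the regions in both but 0.515% of those of replicate 1 only and 4.42% of those of replicate 2 only. Regions within 1 kb of a small RNA gene's TSS, and of no coding TSS, were 4.69%, 1.00% and 0.951%. Introns over 1 kb from a TSS held 12.2%, 16.6% and 22.3%.

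At coding promoters the summits stood close to the start. The median summit was 3 bp downstream of the nearest coding TSS for the regions in both (quartiles -114 and 107 bp, 607 regions) and 17 bp downstream for those of replicate 1 only (quartiles -106 and 171 bp, 4379 regions). Summits within 200 bp of a coding TSS were 67.5% and 61.6% of these regions. The regions in both were wider, with a median of 533 bp against 275 bp, which in part follows from merging a peak of each list.

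Among the regions in both replicates within 1 kb of a coding TSS, the 6 highest lower folds were at genes for abundant small RNAs. Over all regions in both, wherever they lay, 24 had a fold over 20 in each replicate, so that these 6 are not the highest of all. RN7SK encodes the 7SK RNA, which holds the elongation factor P-TEFb inactive, and its region near the TSS of GSTA4 (chr6:52995620-52995971) had folds of 49.6 and 59.6 with 78 and 104 fragments. RNU1-4, at CROCC (chr1:16740273-16740704), had folds of 49.5 and 44.3. RN7SL1, an RNA of the signal recognition particle beside RPS29 (chr14:49586531-49586891), had folds of 58.1 and 27.8. These 3 genes had folds over 20 in both replicates and a peak in 24, 16 and 27 other ZFPs. RMRP, the RNA of RNase MRP, beside CCDC107 (chr9:35657750-35658681), had folds of 22.9 and 17.9. RNU2-2P, a U2 gene in WDR74 (chr11:62841621-62841820), had folds of 23.3 and 15.7. RPPH1, the RNA of RNase P, beside PARP2 (chr14:20343068-20343423), had folds of 35.5 and 10.8. The summits of these 6 regions lay in the exons of the small RNAs, and those of RNU2-2P and RPPH1 lay in an exon of WDR74 and of ENSG00000259001 as well.

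Of 7565 annotated small RNA genes, 127 overlapped a peak of replicate 1 (1.68%), 73 a peak of replicate 2 (0.965%) and 64 a peak of each (0.846%). By family, 12 of 146 annotated U1 genes and pseudogenes had a peak in replicate 1, with folds from 10.6 to 52.3. In replicate 2 there were 12 as well, with folds from 6.12 to 44.4, and 11 had a peak in both replicates. Of 90 U2 genes and pseudogenes 8 had a peak in both. Of 680 genes of the 7SL family 3 did, and 4 of 85 of the U3 family, the snoRNA that guides cleavage of the ribosomal RNA precursor. No U6, U5, Y RNA or vault RNA gene had a peak in either replicate, among 1309, 31, 812 and 6 annotated copies. Of 8 annotated 5.8S rRNA genes 3 had a peak, each in both replicates, with folds of 20.5 to 29.4 in replicate 1. Of 530 genes and pseudogenes of 5S rRNA, 15 had a peak in replicate 1, with folds of 4.50 to 7.90, 3 had one in replicate 2, with folds of 3.65 to 5.70. Copies of such families are nearly identical, so that reads may have been placed on any of them. In all, 44 regions had a fold over 10 in both replicates, the 3 CISD1 pseudogenes included, and 30 of these were within 1 kb of a small RNA TSS.

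Coding promoters apart from these genes were low and even. The 584 in both replicates without a small RNA TSS within 1 kb had median folds of 5.83 and 5.13 on a median of 8 fragments in each replicate, and none had a fold over 10 in both. The highest was CARM1, an arginine methyltransferase that acts as a transcriptional coactivator (chr19:10870858-10871567), with folds of 12.9 and 9.32 on 16 and 12 fragments. FAM86B2 (chr8:12436402-12437170) had folds of 9.85 and 9.32. AHRR, the repressor of the aryl hydrocarbon receptor (chr5:344456-344692, in an intron, 928 bp from a TSS), had folds of 9.21 and 9.28. The region within 1 kb of a TSS of MAZ and of KIF22, a kinesin (chr16:29805478-29806001, MAZ nearest), had folds of 8.90 and 9.28. MAZ is a promoter-binding zinc finger protein with a list of its own in the series. These 4 regions were shared with 13, 12, 8 and 13 other ZFPs. Among genes chosen after their values were seen, NFE2L2, the regulator of the oxidative stress response (chr2:177263576-177264311), had folds of 17.2 and 8.56, and PBX3, a homeodomain factor (chr9:125746023-125746674), had 8.33 and 12.2.

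Within these 584 promoters the folds of the replicates were loosely related, with a Spearman's rho of 0.190, whereas over all 1109 regions it was 0.548. These are descriptions across regions of 2 libraries, and all points passed a threshold in both lists. The 1109 include the 3 CISD1 pseudogenes, with the highest folds, as well as the small RNA genes and the satellites.

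**Figure D3:**
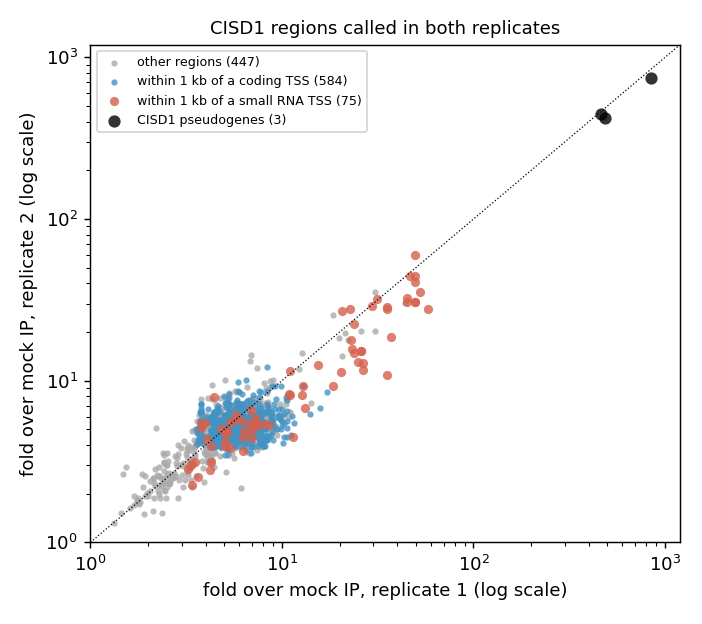
Fold over mock IP of the 1109 regions called in both replicates, replicate 1 against replicate 2 (both axes log scale, dotted line where they are equal). Black points are the 3 CISD1 pseudogenes, red points lie within 1 kb of a small RNA TSS, blue points within 1 kb of a coding TSS, and the 584 blue points form a cloud with medians of 5.83 and 5.13.

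Of the regions in both replicates, 390 had no TSS within 1 kb. Of these 99 (25.4%) were satellite-like and 209 were shared with 10 or more other ZFPs. The 390 include 42 on sequences other than chromosomes 1 to 22, X and Y. The annotation used here has no gene on those sequences, so that no distance to a TSS could be taken. Whether they hold genes was not examined. The highest fold on the main chromosomes was in an intron of HFM1, a meiotic helicase (chr1:91387245-91387565), with folds of 30.7 and 35.2 on 193 and 270 fragments. The control expectation there was 5.33 and 6.69, well over the lowest of either list, and 21 other ZFPs had a peak. The ribosomal DNA of chromosome 21 (chr21:8213796-8220618) had folds of 25.7 and 20.4 and 32 other ZFPs. An intron of PRKCA, protein kinase C alpha (chr17:66798414-66799619), had folds of 19.7 and 18.3 and 30 other ZFPs. An intron of SLCO5A1 (chr8:69690115-69690391) had folds of 22.2 and 17.8, and a stretch of chromosome 7 (chr7:1272204-1272992) had 12.3 and 11.9. A peak in an intron of GCNT1, a glycosyltransferase (chr9:76571761-76572054), had folds of 9.0 and 10.1 and was shared with 1 other ZFP.

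The satellite-like regions had many fragments and low folds. Their median fold was 2.59 in replicate 1 and 2.64 in replicate 2, on 53 and 78 fragments over control expectations of 20.7 and 29.9, and their median number of other ZFPs was 28. The mock IP therefore had many fragments at or around the same places.

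On the mitochondrial genome of 16569 bp, replicate 1 had 3 peaks over 96.9% of its length with folds of 3.41 to 4.24. Replicate 2 had 10 peaks over 76.7% with folds of 1.31 to 3.13. Such coverage was seen in other lists too, since 45 of the 72 lists had a peak on the mitochondrial genome, 11 of them over 90% of it, and the CISD1 replicates ranked 8 and 16 by the share covered. CISD1 sits on the cytosolic face of the outer membrane, while the mitochondrial genome lies in the matrix.

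Most regions found in both replicates were also called for another ZFP, counting an overlap of at least 1 bp with either of its lists. The share of all coding promoters that such lists overlap is not given here. Of the 1109, 95.8% (exact 95% interval 94.4 to 96.9%) overlapped a peak of at least 1 other ZFP, and the median was 7 of 35. The regions of replicate 1 only had 54.0% (52.9 to 55.1%) and a median of 1, and those of replicate 2 only 53.3% and a median of 1. Requiring a peak in both replicates of the other ZFP, 70.4%, 15% and 15.6% were shared. Sharing with 10 or more others was seen for 33.3% of the regions in both and 1.16% of those of replicate 1 only. Libraries of 1 batch were called against the same mock IP, but no source used here gives the batch of a library, so that overlaps and the shared control cannot be told apart.

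The difference between the classes was also present at equal pileup of replicate 1. Region width was not matched, with medians of 533 bp for all regions in both and 275 bp for all of replicate 1 only. A wider region can meet a peak of another list more readily, and the part of width was not tested. At coding promoters with 6 to 7 fragments in replicate 1, 95% of the 181 regions in both and 68.8% of the 1885 regions of replicate 1 only were shared. At 10 to 14 fragments the shares were 98.8% of 163 and 93.0% of 415, with medians of 8 and 4 other ZFPs.

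**Figure D4:**
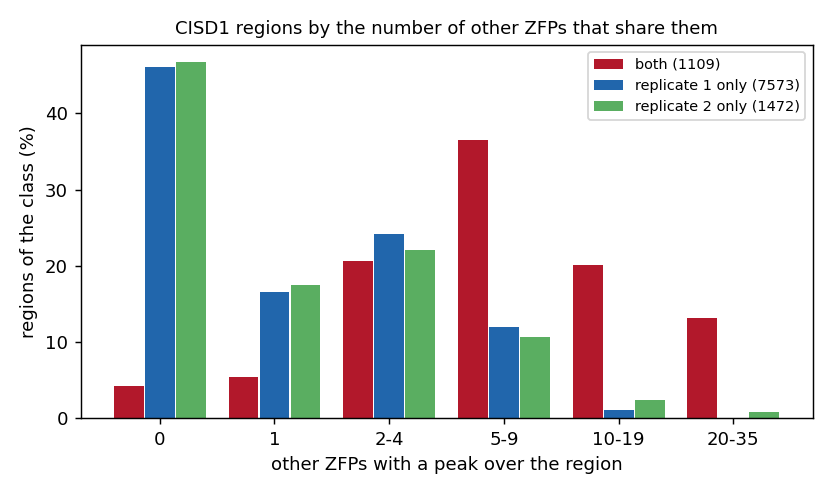
Percent of the CISD1 regions of each class (vertical axis) by the number of the 35 other ZFPs with a peak over the region (horizontal axis). Regions in both replicates (red, 1109) mostly overlap 5 or more other ZFPs, whereas 46% of those of replicate 1 only (blue, 7573) and 46.7% of those of replicate 2 only (green, 1472) overlap none.

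The other ZFPs shared unequally. APEX2, a DNA repair nuclease, overlapped 69.3% of the regions in both and 25.5% of those of replicate 1 only. GIN1 overlapped 65.8% and 14.8%, ZNF22 63.9% and 25%, PHF7 62.9% and 22.8%, and G2E3, a ubiquitin ligase, 61.1% and 20.6%. At least 1 of these 5 overlapped 91.3% of the regions in both, and all 5 overlapped 31.6%. Read from the other side, CISD1 regions overlapped 37.1% of the 8429 regions of APEX2, 48.2% of the 4408 of GIN1 and 41.0% of the 7029 of ZNF22. CTCF, the insulator protein with a well-known motif, was overlapped at 37.8% of its 4100 regions and held 35.2% of the CISD1 regions in both. The 5 ZFPs have long lists too, and were picked by these values. The median pileups of their lists were 4 to 9, and 24.6% to 50.3% of their shorter list overlapped the longer one, against 44.1% for CISD1.

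The regions shared most widely had a high control expectation at the median, though not each of them did. The PRKCA intron, RN7SL1 and RN7SK were shared with 30, 27 and 24 other ZFPs at control expectations of 0.592 to 1.02. The 146 regions in both that 20 or more other ZFPs shared had median control expectations of 15.5 and 20.5 and median folds of 3.49 and 3.31. Of these, 56.2% were satellite-like and 6.85% within 1 kb of a coding TSS. Those shared with 5 to 9 others, by contrast, had control expectations of 0.592 and 0.762, and 71.6% lay at a coding TSS. ADAP1 (chr7:905577-906478) and MUC3A, a membrane mucin with repeated coding sequence (chr7:100957645-100958900), were the coding promoters shared with most ZFPs, 31 each. ADAP1 had folds of 5.29 and 8.25 over control expectations of 4.48 and 5.90, and MUC3A had folds of 7.19 and 5.13 over 8.18 and 10.1.

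Regions called for CISD1 alone in both replicates numbered 47, of which 16 were within 1 kb of a coding TSS. CISD1P1 and ENSG00000253512, the pseudogenes that match the ORF, led them. The next was RNASET2, a lysosomal ribonuclease (chr6:166944770-166945208, in an intron), with folds of 6.06 and 6.45 on 7 and 8 fragments. In its window shown above a stretch of sequence recurs in tandem, and how reads were placed there was not tested. An intergenic stretch of chromosome 7 (chr7:102969-103399) had folds of 6.06 and 5.73. GRK5, a kinase of G protein-coupled receptors (chr10:119207798-119208094, on its coding exon), had 7.54 and 5.59 on 11 and 9 fragments. GPC5, a glypican (chr13:91398632-91399013), had 5.83 and 5.48. HEBP1, a haem-binding protein, with 6.38 and 5.09, and DAPK1, a death-associated kinase, with 5.15 and 4.85, were among the others and were named after their values were seen. These CISD1-only regions had a median of 6 fragments in each replicate, the lowest of any sharing group of the regions in both, and none was satellite-like.

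Replicate 1 alone called 19 regions on the main chromosomes at a fold over 10, 12 of them within 1 kb of a coding TSS. CDKN2B, an inhibitor of cyclin-dependent kinases (chr9:22008771-22009356), had a fold of 11.6 on 16 fragments and was shared with 11 other ZFPs. PPP2R3A, a regulatory subunit of protein phosphatase PP2A (chr3:135965491-135965971), had 11.4. GRB2, an adaptor of receptor kinases (chr17:75405505-75405911), had 11.3 on 17 fragments. The remaining regions named by fold were the promoters of KCTD21 and USP35 (11), ARHGAP45 (10.6), AHCYL2 (10.6), CCDC96 and TADA2B (10.5), and PITRM1, a protease of the mitochondrial matrix (10.3). These 8 regions were shared with 4 to 11 other ZFPs, although replicate 2 lacked a peak at each. In replicate 2 alone the highest coding promoters were VPS45 (8.27), FGGY (8.07) and POLE2 (7.96), named after their values were seen.

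Among 20007 protein-coding genes, 5075 had a peak of replicate 1 within 1 kb of a TSS (25.4%), 1399 a peak of replicate 2 (6.99%) and 715 a region of both replicates (3.57%). Gene lists are given beside these shares as a description, and nothing was tested on them. Of 41 genes of the mitochondrial outer membrane, 17 had a peak in replicate 1 (41.5%, exact 95% interval 26.3 to 57.9%), CISD1 itself included through the promoter region that was set apart, 6 in replicate 2 (14.6%) and 1, MTCH2, a region in both (2.44%). Without CISD1 16 of 40 did (40%, 24.9 to 56.7%). Apart from CISD1 itself (21.4), the highest folds of replicate 1 were at TOMM20 (8.91), the receptor of the import complex, TOMM40 (7.79), its channel, and BNIP3 (7.79), a mitophagy receptor. None of these 3 was called in replicate 2. Of 29 genes of iron-sulfur cluster assembly 11 had a peak in replicate 1 (37.9%, 20.7 to 57.7%), with IBA57 at 8.69, MMS19 at 7.78 and the cysteine desulfurase NFS1 at 7.08. In replicate 2, 7 did (24.1%), with ISCA2 at 7.89 (its region is also that of NPC2). Only NUBP2, with folds of 3.77 and 4.68, had a region in both.

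Nuclear genes of the respiratory chain and ATP synthase were near the background, with 21 of 78 (26.9%) in replicate 1 and 4 in both (5.13%). ATP5ME had folds of 8.15 and 4.48, NDUFV3 6.89 and 5.50, and ATP5MC1 5.03 and 5.87. NDUFA1, with 6.39 and 5.42, shares its region with RNF113A. Mitochondrial ribosomal proteins had 21 of 78 (26.9%) in replicate 1 and 2 in both, MRPL55 (10.6 and 5.59) and MRPL54 (5.99 and 5.48). MRPS12 (9.92) and MRPL40 (7.92) were called in replicate 1 only.

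Of 74 splicing factors and hnRNPs, 31 had a peak in replicate 1 (41.9%, 30.5 to 53.9%) and 7 a region in both (9.46%), among them HNRNPU (7.58 and 4.13), SRSF2 (7.08 and 5.09) and SRSF4 (5.08 and 7.27). HNRNPF (8.58) and HNRNPH1 (8.24) had a peak in replicate 1 only. Heat shock chaperones had 10 of 23 (43.5%, 23.2 to 65.5%) in replicate 1 and 2 in both, HSPD1 and HSPE1, which share a divergent promoter with folds of 5.95 and 5.04. DNA replication genes had 15 of 46 (32.6%) and 1 in both, ORC6 (8.88 and 5.54), with LIG1 at 8.18 and POLD1 at 7.58 in replicate 1 only. Translation initiation factors had 14 of 56 (25%) and 3 in both, EIF5A (6.75 and 7.0) highest by its lower fold. EIF5 (8.33) was called in replicate 1 only. Replication-dependent histones had 18 of 69 (26.1%) and 2 in both, H2AC18 (6.39 and 4.96) and H2AC19 (5.84 and 5.30). Proteasome subunits had 8 of 39 (20.5%), and PSMA5 alone had a region in both (5.67 and 5.30).

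Cytosolic ribosomal protein genes had 15 of 87 (17.2%, 9.98 to 26.8%) in replicate 1, 9 in replicate 2 and 4 in both. RPS29 (58.1 and 27.8) was the peak of RN7SL1. The others were RPL5 (6.36 and 5.61), RPLP2 (7.54 and 4.48) and RPS2 (7.19 and 5.50). Immediate early genes had 9 of 30 (30%) in replicate 1, with CCN2 (5.83) and FOSB (5.81) highest, and none in both. HOX genes had 9 of 39 (23.1%), with HOXD11 at 7.58 and HOXB9 at 7.44, and none in both.

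In replicate 1 the lowest shares were those of the olfactory receptors and the keratins. None of 415 olfactory receptor genes had a CISD1 peak within 1 kb of a TSS in either replicate (exact 95% interval 0 to 0.885%), and 3 counts, the limit taken for a count of 0, would be 0.723%. Of 149 keratins and keratin-associated proteins 3 had a peak in replicate 1 (2.01%, 0.417 to 5.77%) and 2 in replicate 2. KRT18, a keratin of simple epithelia, had folds of 4.55 and 6.43, but in separate regions, and no gene of this list had a region in both. Interferon and DNA sensing genes had 4 of 34 (11.8%, 3.30 to 27.5%) in replicate 1, IRF1 (7.35), IRF3 (6.62), ISG15 (6.15) and TRIM25 (4.39), and none in replicate 2. ZNF genes of chromosome 19 had 29 of 246 (11.8%, 8.04 to 16.5%) and 3 in both, ZNF428, ZNF524 and ZNF784. Of the 35 other ZFPs themselves, 13 had a peak in replicate 1 (37.1%, 21.5 to 55.1%) and 4 a region in both (11.4%), namely MAZ (8.90 and 9.28), RNF113A (6.39 and 5.42), ZFP36L1 (6.18 and 5.59) and CPSF4 (3.77 and 4.48).

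**Figure D5:**
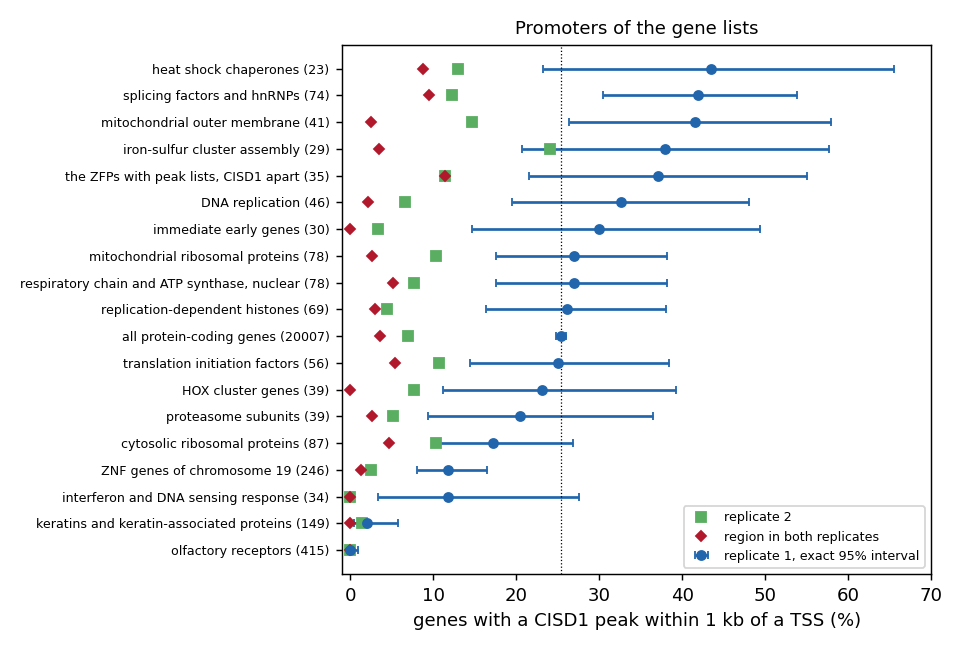
Percent of the genes of each list with a CISD1 peak within 1 kb of a TSS (horizontal axis), by list with its number of genes (vertical axis). Blue points are replicate 1 with exact 95% intervals, green squares replicate 2 and red diamonds regions of both replicates, and the dotted line marks the 25.4% of all protein-coding genes in replicate 1.

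The summit windows at coding promoters were rich in G and C. Their median GC content was 71.1% for the 607 regions in both and 70.6% for the 4379 of replicate 1 only, against 60.2% for windows of the same length centred on all 146186 coding TSS positions. GGGCGG, the core of SP and KLF sites, was in 63.8% (exact 95% interval 59.8 to 67.6%) of the first, 59.2% (57.7 to 60.6%) of the second and 36% of the third. CARM1, shown above, has 4 matches. NRF1 matches were in 4.94% (3.36 to 6.98%), 2.69% (2.24 to 3.22%) and 1.92%, and matches to AGGGGGCGC, part of the CTCF motif, in 2.80%, 2.26% and 0.958%. TATAAA was in 0.494%, 0.639% and 7.06%. Matches to CCAAT were in 19.6%, 14.5% and 22.9%, and to the ETS core in 9.72%, 6.67% and 8.17%.

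At equal GC content the share with GGGCGG was not above that of the TSS windows in either class. Among windows of 65 to 75% GC, the motif was in 62.9% (57.6 to 68.0%, 348 windows) of the regions in both, 59.5% (57.4 to 61.6%, 2163 windows) of those of replicate 1 only and 65.1% (64.6 to 65.6%) of the 36393 TSS windows. The interval of the regions in both held the share of the TSS windows, and that of replicate 1 only lay below it. ETS matches were in 11.8% (8.59 to 15.6%), 7.4% (6.33 to 8.58%) and 14.3%, and CCAAT in 18.4%, 14.4% (13.0 to 16.0%) and 19.3%. NRF1 matches were in 5.46% (3.32 to 8.40%), 3.47% and 3.72%, CTCF core matches in 2.3% (0.998 to 4.48%), 2.36% (1.76 to 3.09%) and 1.51%, and YY1 matches (AAGATGGCG) in 1.44% (0.468 to 3.32%), 1.8% (1.29 to 2.46%) and 3.18%. TSS windows are centred on starts and overlap each other, so that the 2 kinds of windows also differ in position.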

How the data were processed

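Cut&Run peak lists of V5-tagged CISD1 (2 wells of HEK293T) and 35 other ZFPs were analysed, with groups taken from the sample titles. Per the study's methods and processing notes, reads were trimmed (Trimmomatic 0.36), aligned to hg38 (Bowtie2 2.3.5.1, fragments of 10 to 700 bp), freed of duplicates (Picard), and the authors called peaks in each replicate against the mock IP of its batch with MACS2 2.2.7.1 at a false discovery rate under 0.05. The deposited lists give each peak's fold over mock IP (a ratio at the summit), -log10 p and -log10 q, and a score, which is 10 times -log10 q. Totals of reads are not in the lists, so fold is relative to a scaled control. Mock IP lists were not analysed here.

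Here, TSSs and genes came from GENCODE release 44 (hg38), and the distance to a TSS was taken from the peak's edges. A peak was satellite-like with 5 or more GGAAT pentamers on either strand within 100 bp of its summit. The pileup was solved from the deposited fold and p-value. The ORF sequence came from the study's clone list and was searched with blastn 2.17.0. Motif matches were exact, on both strands, within 100 bp of the summit (of replicate 1 where it had one). For the comparison of ZFPs, 4 measures per ZFP were compared by an exact permutation test that gives the label CISD1 to each of the 36 ZFPs in turn. Regions, overlaps, gene lists and motifs were counted with no test, because ZFPs of 1 batch share a mock IP. The same sharing limits the permutation test, which could not take batches into account. Named were, by fold, 10 coding promoters and 6 distal regions in both replicates, 8 coding promoters of replicate 1 only, 6 regions of no other ZFP, 4 of most ZFPs, and up to 4 members of each gene list. The members and lists were chosen with earlier results of these data known. Scripts were tested on simulated peaks. Analyses used Python 3.11.15, pandas 2.3.3, numpy 2.4.6, scipy 1.17.1 and pysam 0.24.0. Columns other than these were not used.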

Additional observations from a re-analysis of the deposited data

How the results depend on the processing

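No paired analysis was possible because replicate numbers name wells and each test used 1 value per ZFP. Of 40 alternative values of the main results, 32 kept their direction and side of the threshold or moved little. The peak count per list, 4787 as a geometric mean, ran from 2633 without replicate 1 to 8702 without replicate 2 (exact permutation test, p = 0.0278 in the latter, the smallest it can give). The share within 1 kb of a TSS ran from 55.0% to 64.4% and that of satellite-like peaks from 1.67% to 6.27% when 1 replicate was left out. The overlap between replicates turned above the mean of the other ZFPs without satellite-like peaks (42.9%, exact permutation test, p = 0.806). Regions in both replicates fell from 1109 to 593 at q of 0.001 or less and to 631 where peaks had to overlap by 50%. The share of regions that another ZFP overlapped, 58.4% over all, was 21.2% where both replicates of that ZFP had to have a peak, and 59.3% to 71.7% with 1 CISD1 replicate left out. Coding genes with a peak in either replicate, 5521, fell to 3225 at q of 0.001 or less, and were 1399 to 5075 with 1 replicate left out. Of 72 gene list counts, 30 moved by over 1.5 times, 13 under the stricter q and 17 without replicate 1. The cause of these moves was not tested, apart from the stricter thresholds, which keep fewer peaks by construction. The NRF1 share (4.94%) was 3.62% to 5.62% under 3 alternatives chosen after seeing the data. With a median of 6 to 8 fragments behind a peak, absence from a list does not show absence of signal.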
